A study of Homo sapiens with 8 samples.

Results

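JJN3 and RPMI-8226 are established human multiple myeloma lines, grown from malignant plasma cells, and the 4 JJN3 arrays of the series were set against its 4 RPMI-8226 arrays. All 8 arrays of the series entered the comparison. Each line gave 1 culture to each of 4 treatments, so the arrays formed 4 pairs by treatment: cells without lentivirus (uninfected), and cells infected with lentivirus carrying a non-targeted (NT) shRNA, an shRNA against XBP1 or an shRNA against IRE1, the protein of the gene ERN1. Both lines were grown in IMDM with 10% serum and 5% CO2. Infected cells were given supernatant diluted to 30 to 50% for 16 h with 8 µg/mL polybrene, and cells were harvested at 96 h. The differences reported are those of JJN3 minus RPMI-8226 that stood in all 4 pairs, whatever the treatment. No array repeated a line and a treatment, so the spread behind each p-value comes from 4 unlike pairs. limma draws that spread towards a value shared over all genes, and 1 line stands for each side.

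Plasma cells are the antibody-secreting end stage of the B cell lineage. Their state rests on a few transcription factors, among them IRF4, PRDM1 and XBP1, and on a large secretory apparatus, and IRE1 is the endoplasmic reticulum (ER) stress sensor that splices the XBP1 mRNA. Myeloma is a clonal cancer of these cells that usually lives in bone marrow, where growth factors, adhesion molecules and chemokines of both tumor and marrow matter. Lines from different patients carry different translocations and other genetic lesions, and cyclin D, MAF, RAS and NF-kB genes are common points of difference.

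The arrays held 54675 probe sets, of which 41091 had a single gene symbol, and 19775 genes were tested with 1 probe set each. The deposited values are taken as log2 values and had been centred on the median of each probe set over the 8 arrays, so they give differences between arrays and no level. Whether a gene was expressed, including the plasma cell markers of the labelled cell type, could therefore not be read. The centring also places the median between the lines for a gene whose lines do not overlap, so that the lowest value of the higher line and the highest value of the lower line are equal in size. RNA came from whole cultures, where fewer expressing cells and less RNA per cell cannot be told apart. In what follows, values of a gene in a line are given in the order uninfected, NT shRNA, XBP1 shRNA and IRE1 shRNA. Differences are means of the 4 pairs in log2 units, ± the SE of limma, which rests on this moderated spread. The limma p-values were adjusted by Benjamini-Hochberg over the 19775 genes, with a threshold of 0.05.

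Before the results, some array-wide values moved with the line. The 18S ribosomal RNA probe sets had medians of 0.85 to 1.14 on the JJN3 arrays and -1.10 to -0.85 on the RPMI-8226 arrays, while those of 28S ribosomal RNA overlapped. The 3′ minus 5′ difference of the actin control was 0.13 to 0.42 in JJN3 and -0.61 to -0.43 in RPMI-8226, while that of GAPDH overlapped. Array medians were -0.055 to -0.036 in JJN3 and 0.027 to 0.058 in RPMI-8226. The part of these in the results was not tested.

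The lines differed across much of the transcriptome. Of the genes tested, 11823 (59.8%) passed the threshold, 4103 (20.7%) higher and 7720 (39%) lower in JJN3, and 11431 (57.8%) did so with 1 sign in all 4 pairs. The other 7952 did not pass, and for 6457 of the 19775 genes the 95% interval of the difference lay within 0.5 of 0. In 10081 of the 19775 genes the 4 JJN3 values did not overlap the 4 RPMI-8226 values. Separations of single genes below should be read against that number. Many called differences were small, with a median size of 0.59. The split by direction moved with the scaling: 34.7% of the called genes were higher in JJN3 as deposited, 43.9% with every array shifted to a median of 0 and 46.6% after cyclic loess. Over all genes the median difference was -0.19 as deposited, -0.10 with medians at 0 and -0.06 after cyclic loess, and list medians below should be read against it.

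Large standing differences, past the threshold and at least 1 log2 unit the same way in each of the 4 pairs, numbered 1944 genes (9.83%), of which 1208 (6.11%) were higher and 736 (3.72%) lower in JJN3. Their mean difference reached 3 in 404 genes, 258 higher and 146 lower, and it reached 5 in 68 higher and 32 lower. Of the 1944 genes, 1626 had every probe set on the same side, and 139 had another probe set called the other way. Of 190 named genes with a difference of at least 1, the mean over a gene's probe sets moved 59 by over 1.5 times, among them CNR1 (2.28), HAVCR2 (-4.74) and HLA-DQB1 (3.26), and cyclic loess moved 15, among them HLA-DQB1 (4.18), GBP1 (1.28) and GPX7 (-10.52). The 4 pairs share no array, and their differences correlated across genes with Pearson's r of 0.90 to 0.93, a description only, since genes are not independent. Of the summed squares of all genes, line took 84.1%, treatment 10.5% and the remainder 5.45%. The median share per gene was lower for line, at 60.01%, and higher for treatment, at 19.11%, and for the remainder, at 12.56%. A test of whether the line difference was unequal between silenced (XBP1 or IRE1 shRNA) and control pairs called 0 genes in limma, with 912 at an unadjusted p below the threshold and a lowest adjusted p of 0.266; unlike treatments stood as replicates there.

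**Figure D1:**
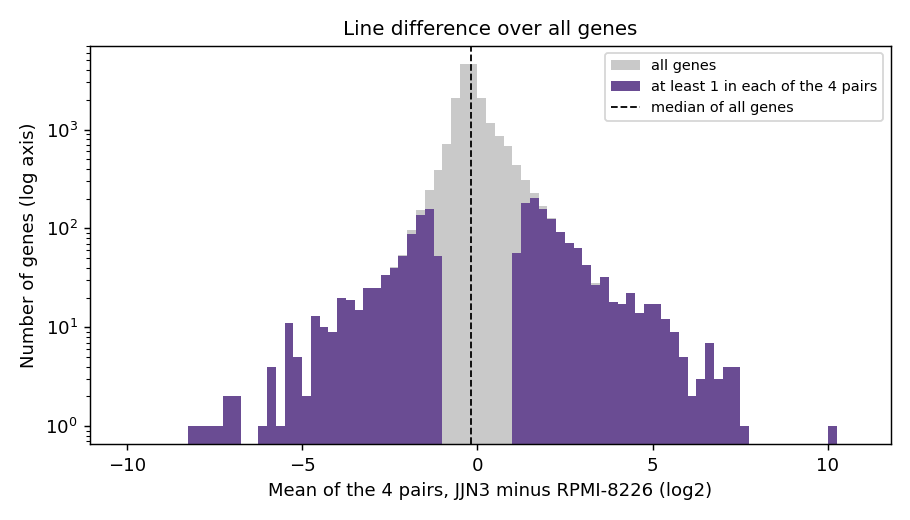
Number of genes (vertical, log axis) by mean difference of the 4 pairs, JJN3 minus RPMI-8226 (horizontal, log2 units), for all 19775 genes in grey and for the 1944 large standing differences in purple; the dashed line is the median of all genes, -0.19. The bulk of genes sits near the dashed line, and the purple tail is longer on the side higher in JJN3, where 68 genes reached 5 against 32 on the other side.

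The genes with the largest differences higher in JJN3 included secreted factors, receptors and matrix enzymes. CTHRC1, a secreted protein with a collagen-like repeat, had the largest difference of all genes named here. It stood at 5.04, 4.98, 4.84 and 4.89 in JJN3, against -5.08, -5.43, -4.93 and -4.84 in RPMI-8226, a difference of 10.01 ± 0.13 (limma adjusted p = 5.07e-10). The groups were separated by a gap wider than the spread of either line. HGF, hepatocyte growth factor and the ligand of the receptor MET, stood at 3.95, 3.82, 3.05 and 4.0 in JJN3, against -3.05, -3.79, -4.02 and -3.18 in RPMI-8226, a difference of 7.22 ± 0.12 (limma adjusted p = 1.05e-09). All 5 HGF probe sets were called higher, at 3.65 to 8.31. Among large genes whose probe sets all had 1 sign, the other 13 of the 15 highest lay between 6.65 and 7.74 (limma adjusted p at most 1.72e-08). They were FABP5 (a fatty acid-binding protein), GJA1 (a gap junction connexin), BCHE (butyrylcholinesterase), FZD6 (a Wnt receptor), POU2AF3 (a POU-domain coactivator), HS6ST2 (a heparan sulfate sulfotransferase), PROK2 (a prokineticin), FRMD6 (a FERM-domain protein), ROBO1 (a Slit receptor), SLC47A1 (a transporter of organic cations), PLOD2 (a collagen lysyl hydroxylase), LAMP5 (a lysosome-associated membrane protein) and CNR1 (a cannabinoid receptor). In 12 of these 15 genes the JJN3 array nearest to RPMI-8226 was the XBP1 shRNA one. Over all 1208 large higher genes the smallest pair difference fell in the XBP1 shRNA pair in 325 and in the uninfected pair in 349.

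The genes lowest in JJN3 included the chemokine receptors CCR2 and CX3CR1 and the immune receptors HAVCR2 and FCMR. S100A4, a calcium-binding protein, stood at -4.01, -4.31, -3.76 and -4.97 in JJN3, against 3.84, 3.76, 4.33 and 3.92 in RPMI-8226, a difference of -8.23 ± 0.16 (limma adjusted p = 1.49e-09). CCR2, the receptor of the chemokine CCL2, stood at -3.95, -3.53, -3.39 and -3.51 in JJN3, against 4.95, 4.47, 3.39 and 4.37 in RPMI-8226, a difference of -7.89 ± 0.27 (limma adjusted p = 2.39e-08). HAVCR2, the inhibitory receptor TIM-3, stood at -3.45, -3.76, -3.77 and -4.54 in JJN3, against 4.02, 3.89, 3.45 and 4.08 in RPMI-8226, a difference of -7.74 ± 0.20. No array of 1 line reached the other line in these 3 genes, as in 10081 of all 19775 genes. The other 12 of the 15 lowest, chosen with the same limit on probe sets, lay between -7.31 and -5.50 (limma adjusted p at most 4.27e-08). They were EVI2B (a leukocyte membrane protein), KISS1R (the kisspeptin receptor), PAGE1 and ACTL8 (cancer-testis genes), IGFBP3 (a binder of insulin-like growth factors), BNIP3 (a mitophagy receptor), FCMR (the Fc receptor of IgM), SPINT2 (an inhibitor of the protease that activates HGF), SNX20 (a sorting nexin), ANKRD55 (an ankyrin-repeat protein), CCL5 (a chemokine) and CX3CR1 (the receptor of fractalkine).

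**Figure D2:**
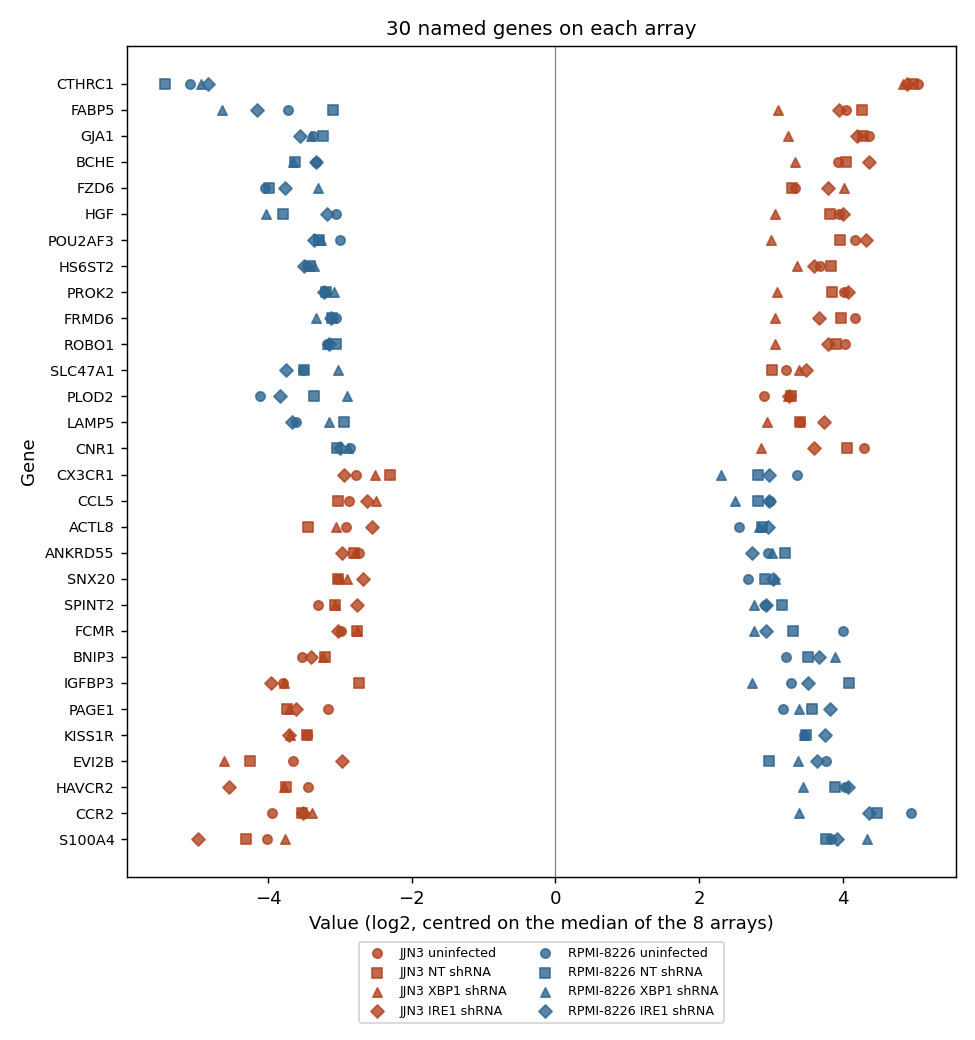
Centred value (horizontal, log2 units) of the 15 highest and 15 lowest genes among large standing differences whose probe sets all had 1 sign, on each array, 1 point per array, JJN3 in red and RPMI-8226 in blue, with a marker shape per treatment. In all 30 genes, picked for their large differences, the 4 JJN3 points lie apart from the 4 RPMI-8226 points, as in 10081 of all 19775 genes. CTHRC1 is the widest, and the JJN3 XBP1 shRNA triangle is the innermost red point in 12 of the 15 upper genes.

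Among genes of plasma cell identity, 7 of 24 measured were higher (29.2%, against 20.7% of all genes), 11 lower (45.8%, against 39%) and 6 not called. The list median of the mean differences was 0.05, while the medians in the 4 pairs were -0.18, -0.06, -0.02 and -0.27. IRF4, the factor on which myeloma cells depend, stood at 1.49, 1.30, 0.14 and 0.98 in JJN3, against -0.14, -0.78, -1.74 and -0.21 in RPMI-8226, a difference of 1.70 ± 0.15 (limma adjusted p = 1.07e-05). PRDM1, the repressor BLIMP1 that closes the B cell program, stood at 1.27, 1.39, 0.31 and 0.90 in JJN3, against -0.31, -0.35, -1.74 and -0.40 in RPMI-8226, a difference of 1.67 ± 0.13 (limma adjusted p = 6.21e-06). For both genes the XBP1 shRNA array was the lowest of its line, and the lines did not overlap. All 3 IRF4 probe sets had a positive difference, but only 1 was called, while all 3 of PRDM1 were called higher. POU2AF1, an octamer coactivator, and ZBTB20, a zinc finger repressor, were also higher, at 1.43 and 3.82, although 1 of the 2 POU2AF1 probe sets was called the other way. TNFRSF17, the gene of BCMA, was higher by 0.92 ± 0.17. CD38, a surface ectoenzyme and antibody target, went the other way, at -2.04, -2.03, -1.92 and -2.30 in JJN3, against 2.55, 3.43, 1.92 and 2.68 in RPMI-8226, a difference of -4.72 ± 0.22 (limma adjusted p = 1.69e-07). SDC1, the gene of CD138, was lower by a smaller amount, -1.22 ± 0.19, and neither it nor TNFRSF17 passed with each gene's own variance in place of limma's shared estimate. Also lower, MZB1 and FKBP11, both of the secretory ER, were at -2.15 and -2.07.

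The genes targeted by the shRNAs varied by treatment as well as by line. XBP1 (200670_at) stood at 1.02, 1.11, -0.02 and -1.47 in JJN3, against 0.19, 0.02, -0.58 and -0.60 in RPMI-8226. It was higher in JJN3 in 3 pairs and lower in the IRE1 shRNA pair, and the mean difference of 0.40 ± 0.27 did not pass (limma adjusted p = 0.219). ERN1 had 3 probe sets that differed in size: 207061_at gave -0.27 ± 0.10 (limma adjusted p = 0.0502), 227755_at -1.33 and 235745_at -2.58. With 235745_at ERN1 stood at -0.29, -0.35, -1.57 and -1.24 in JJN3, against 2.75, 1.73, 0.29 and 2.11 in RPMI-8226, so the lines did not overlap. In that probe set the array labelled IRE1 shRNA was not the lowest of its line in JJN3 or in RPMI-8226. The lowest was the array labelled XBP1 shRNA in both lines. XBP1 in 200670_at was lowest on the array labelled IRE1 shRNA in both lines, in RPMI-8226 only narrowly, at -0.60 against -0.58. Nothing below rests on how well either shRNA worked.

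With 1 probe set a gene, chosen by its ID, immunoglobulin genes were lower in JJN3 or not called. Among the probe sets given here, lambda ones differed most. RPMI-8226 is known to secrete lambda light chain. Of 12 immunoglobulin genes measured, 8 were lower in JJN3 (66.7%, against 39% of all genes) and the other 4 were not called (list median -0.43). IGLC1, a lambda constant gene, had 9 probe sets, all with a negative difference. In 214677_x_at it stood at -5.30, -5.73, -4.69 and -5.31 in JJN3, against 4.70, 4.71, 4.72 and 4.69 in RPMI-8226, a difference of -9.96 ± 0.15, and 209138_x_at gave -8.50 ± 0.13 (limma adjusted p = 8.10e-10 over all probe sets for both, of which 56% were called, 22.8% higher and 33.2% lower). The probe set chosen by its ID, 211655_at, gave only -0.30 ± 0.10, which did not pass under either rescaling of the arrays. IGKC, the kappa constant gene, ran both ways: 211146_at gave -0.51 ± 0.10, while 214669_x_at stood at 1.53, 1.41, 1.09 and 1.55 in JJN3, against -1.28, -1.10, -1.74 and -1.09 in RPMI-8226, a difference of 2.70 ± 0.10. Immunoglobulin genes are near-copies of each other, and how each probe set divides them is not known here. JCHAIN, which joins IgA and IgM into polymers, was lower by -2.12 ± 0.13, and IGHA1 was at -0.70 ± 0.12. IGHG1 was at -0.23 ± 0.11 and did not pass (limma adjusted p = 0.0880).

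Among genes of the recurrent myeloma translocations and cyclins, 6 of 19 were higher (31.6%, against 20.7% of all genes), 8 lower (42.1%, against 39%) and 5 not called. CCND1, a D-type cyclin, stood at -1.57, -1.49, -1.74 and -1.61 in JJN3, against 1.49, 2.10, 1.49 and 1.63 in RPMI-8226, a difference of -3.28 ± 0.11 (limma adjusted p = 2.72e-08), and its other probe set gave -2.03. CCND2 had no settled direction: 200951_s_at gave -0.45 and the other 3 probe sets 0.45 to 1.08, all called. CCND3 was at -0.51 ± 0.10. CCNE2, an S phase cyclin, was the 1 large higher gene of the list, at 2.32 ± 0.20. MAF, a transcription factor activated by translocation in some myelomas, gave -0.02 ± 0.11 in 206363_at (limma adjusted p = 0.911), but 1.73 ± 0.13 in 1566324_a_at and 0.70 in 229327_s_at, with 209347_s_at at -0.32, all 3 called. Of 20 reported MAF targets, 6 were higher (30%), 8 lower (40%) and 6 not called. CX3CR1, CD9, ITGB7 and TLR4 led the lower side at -5.50, -4.64, -2.25 and -2.25, and AHNAK (2.85) and NOTCH2 (2.42) the higher side. NSD2 and FGFR3, partners in another translocation, were at 0.99 ± 0.11, with probe sets called both ways, and -0.43 ± 0.12, the FGFR3 value not passing without the uninfected or the XBP1 shRNA pair. MYC was lower, at -0.12, 0.03, -1.01 and -0.14 in JJN3, against 0.78, 0.42, -0.03 and 0.74 in RPMI-8226, a difference of -0.79 ± 0.12 (limma adjusted p = 0.000501), with overlap between the lines.

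Among cytokines, chemokines and their receptors 13 of 50 genes were higher (26%, against 20.7% of all genes), 21 lower (42%, against 39%) and 16 not called (list median -0.22), with HGF and IGF1 at the top and CCR2, CCL5 and CX3CR1 at the bottom. Beside HGF, the insulin-like growth factor IGF1 stood at 1.85, 2.40, 2.73 and 2.50 in JJN3, against -2.02, -1.85, -2.42 and -2.18 in RPMI-8226, a difference of 4.48 ± 0.19 (limma adjusted p = 8.57e-08). IL15, a lymphocyte growth factor, and DKK1, the Wnt inhibitor tied to myeloma bone disease, were higher by 2.46 ± 0.24 and 1.91 ± 0.24. MET, the HGF receptor, was singled out after its values were seen and was higher by 1.43 ± 0.13, with 1 of its 4 probe sets called. On the lower side CCR2, CCL5 and CX3CR1, described above, were joined by IL6R, the receptor of the main myeloma growth factor IL-6. IL6R stood at -0.90, -1.11, -2.06 and -2.15 in JJN3, against 1.98, 1.16, 0.90 and 0.92 in RPMI-8226, a difference of -2.79 ± 0.14 (limma adjusted p = 3.06e-07). IL6, given whatever its value as the ligand, was at -0.22 ± 0.13, which did not pass. Not all chemokine receptors were lower: CXCR4 and CCR10, singled out after their values were seen, were higher by 0.70 and 1.71.

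Of 44 surface antigens 9 were higher (20.5%, against 20.7% of all genes), 24 lower (54.5%, against 39%) and 11 not called (list median -0.39). Beside CD38, the lower side was led by CD99, a transmembrane glycoprotein, at -5.21 ± 0.13, and the tetraspanin CD9 at -4.64 ± 0.13. A second tetraspanin, CD81, ran the other way, at 2.09, 2.03, 2.04 and 2.39 in JJN3, against -3.01, -2.03, -2.74 and -2.10 in RPMI-8226, a difference of 4.61 ± 0.16 (limma adjusted p = 2.72e-08). The 2 tetraspanins thus differed in opposite directions in all 4 pairs. CD44, the hyaluronan receptor, was higher by 1.82 ± 0.16 in 212063_at, the largest of its 13 probe sets; the others lay between -0.47 and 0.95, and the lowest was called lower. INSR (1.63) and IGF1R (1.25), the insulin and IGF1 receptors, were also higher, with 1 IGF1R probe set called the other way at -0.57. CRBN, the target of lenalidomide-type drugs, was higher by 0.92 ± 0.11.

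Adhesion and matrix genes went both ways, with 14 of 61 higher (23%, against 20.7% of all genes), 29 lower (47.5%, against 39%) and 18 not called (list median -0.28). ANXA1, an annexin, was higher by 6.06 ± 0.17, and CDH2 (N-cadherin), ACTN1 (an actin crosslinker) and LAMC1 (a laminin chain) by 2.77, 2.68 and 2.56, with 1 of 4 ACTN1 probe sets called the other way at -0.67. Lower beside S100A4 were FN1, fibronectin, at -5.05 ± 0.18, S100A6 at -4.20 and TIMP1, a metalloprotease inhibitor, at -2.84. All 7 FN1 probe sets were called lower. In the list of homeobox and developmental regulators 9 of 32 were higher (28.1%), 17 lower (53.1%) and 6 not called, and the higher ones held 3 known regulators of epithelial-mesenchymal transition. TWIST1 stood at 2.83, 2.96, 2.62 and 3.27 in JJN3, against -2.66, -2.81, -2.83 and -2.62 in RPMI-8226, a difference of 5.65 ± 0.11 (limma adjusted p = 1.49e-09). SNAI2 was higher by 4.77 ± 0.17 and ZEB2 by 3.50 ± 0.24, with 1 of 5 ZEB2 probe sets called the other way at -0.33. HOXB7 led the lower side at -3.95 ± 0.17, with HOXB3 at -1.66.

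By the mean differences of the 4 pairs, mitotic genes had the highest list median of the 32 lists, with the values as deposited. Of 39 genes of G2, mitosis and the spindle, 26 were higher in JJN3, 2 lower and 11 not called, against 20.7% higher and 39% lower over all genes. The list median was 0.77, and 0.78, 1.01, 0.60 and 0.89 in the 4 pairs. It was not the highest in every pair. Histones were at 0.81 in the uninfected pair, and chromatin regulators at 0.63 in the XBP1 shRNA pair. UBE2C, the ubiquitin-conjugating enzyme of the anaphase-promoting complex, stood at 2.37, 2.32, 2.20 and 2.79 in JJN3, against -2.36, -2.20, -2.61 and -2.80 in RPMI-8226, a difference of 4.91 ± 0.16 (limma adjusted p = 2.21e-08). ANLN (anillin, of the cytokinetic ring) was higher by 2.88 ± 0.13, CENPE (a kinetochore motor) by 2.72 ± 0.12 and KIF23 (a midzone kinesin) by 2.37 ± 0.17. The difference was not shared by all mitotic genes: AURKA, AURKB, PLK1, CCNB1 and BUB1, named here as well-known members whatever their values, lay between -0.02 and 0.24 and did not pass. PTTG1, securin, and CDC25C, the activating phosphatase of CDK1, were lower, at -0.92 ± 0.14 and -0.43 ± 0.11, the second no longer past the threshold in 4 of the alternatives tried. The lists nearest to this one in direction were chromatin regulators, 19 of 32 higher and 3 lower (median 0.55), histones, 12 of 20 higher and 1 lower (0.56), and DNA replication, 19 of 40 higher and 6 lower (0.31). In the replication list the median was 0.52 in the uninfected and NT shRNA pairs, and -0.03 and 0.01 in the XBP1 shRNA and IRE1 shRNA pairs. DNMT3B, a DNA methyltransferase, led the chromatin list at 2.46 ± 0.19, with TET2 (1.85) and CREBBP (1.69). CREBBP was also called higher in 228177_at, at 0.51, but was at -0.20 in 211808_s_at and in 235858_at, neither called.

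**Figure D3:**
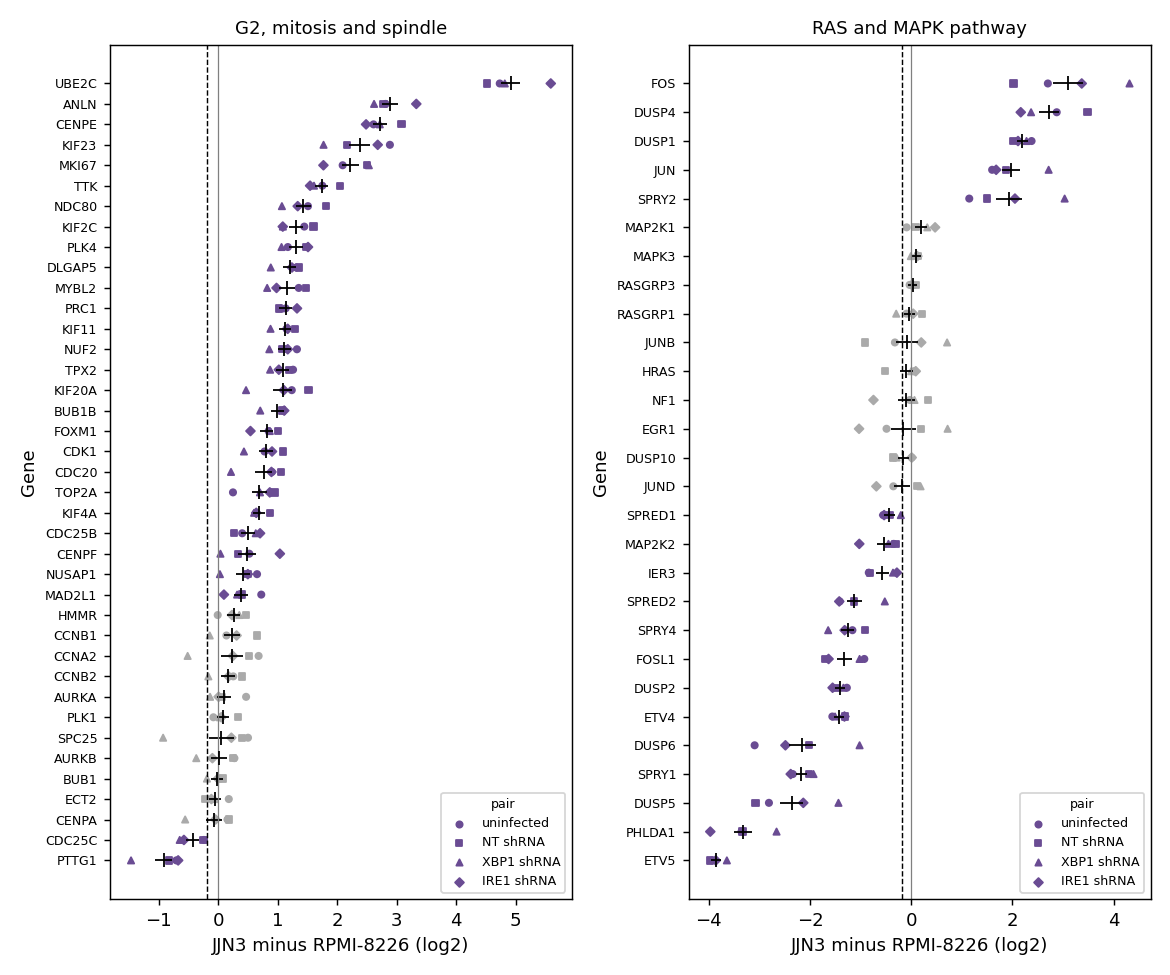
Difference JJN3 minus RPMI-8226 (horizontal, log2 units) for each gene of the mitotic list (left panel) and the RAS and MAPK list (right panel). Each point is 1 pair with a shape per treatment, purple for genes past the threshold and grey for the rest. The black tick and bar are the mean of the 4 pairs ± the moderated SE of limma, and the dashed line is the median of all genes. The left panel leans to the right with UBE2C at 4.91, while the right panel splits between FOS at 3.10 and ETV5 at -3.86.

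Promoters of mitotic genes are known for 2 short elements, the CHR and the CCAAT box. RefSeq promoters of GRCh38.p14 were found for 34 of the 39 list genes and cover 250 bases before and 50 after the start. TTTGAA or its other strand TTCAAA, the CHR letters, was in 23 of the 34 windows (67.6%), against 15.4% of 27305 promoters. CCAAT or ATTGG was in 24 of the 34 (70.6%), against 35.7% of all. Both were in 52.9% of the list and 6.08% of all. Among the 22 list genes with a promoter that were higher in JJN3, 17 held the CHR letters, as did 6 of the other 12, so the element also stood in list genes that were not higher. The CCAAT letters were in 13 of the 22 and in 11 of the other 12. The 150 bases before the start are given 5′ to 3′ for the 3 most different list genes after UBE2C, for which no promoter was found. Within these 150 bases 1 promoter has 2 CHR matches, 1 has none and 1 has a CCAAT box beside the CHR. Capitals mark the matches. ANLN lies at chr7:36389712-36389861 on the plus strand, CENPE at chr4:103198344-103198493 on the minus strand and KIF23 at chr15:69414199-69414348 on the plus strand (GRCh38.p14).
ANLN: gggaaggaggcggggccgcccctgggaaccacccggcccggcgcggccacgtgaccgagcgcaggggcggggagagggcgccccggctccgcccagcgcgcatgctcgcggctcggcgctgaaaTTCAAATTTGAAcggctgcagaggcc
CENPE: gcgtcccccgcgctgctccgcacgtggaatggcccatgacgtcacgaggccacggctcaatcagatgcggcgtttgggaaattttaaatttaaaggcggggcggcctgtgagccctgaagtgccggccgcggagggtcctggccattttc
KIF23: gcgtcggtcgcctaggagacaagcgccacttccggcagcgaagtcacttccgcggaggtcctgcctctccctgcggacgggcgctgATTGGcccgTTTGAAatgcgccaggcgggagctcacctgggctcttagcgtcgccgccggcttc
A match is a run of letters and not a measured binding site, and the arrays measured no binding.

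Of 28 RAS and MAPK genes, 5 were higher (17.9%, against 20.7% of all genes), 13 lower (46.4%, against 39%) and 10 not called (list median -0.17). Of the 28, 12 were large (42.9%, against 9.83% of all genes). ETV5, an ETS factor that follows ERK activity, stood at -1.89, -2.34, -1.64 and -1.96 in JJN3, against 2.05, 1.64, 2.0 and 1.90 in RPMI-8226, a difference of -3.86 ± 0.10 (limma adjusted p = 6.04e-09). PHLDA1, DUSP5 and SPRY1 were lower by -3.33, -2.37 and -2.17, the last 2 being feedback inhibitors of the pathway. All probe sets of these 4 genes were called lower. FOS, the immediate early factor, stood at 1.16, 1.01, 2.38 and 1.73 in JJN3, against -1.54, -1.01, -1.93 and -1.63 in RPMI-8226, a difference of 3.10 ± 0.29 (limma adjusted p = 2.13e-05). Its partner JUN was higher by 1.97 ± 0.17, and the phosphatases DUSP4 and DUSP1 by 2.72 and 2.19. All DUSP4 probe sets were called higher, while of the other 2 of DUSP1 one was called lower, at -0.35, and one was at 0.20 and not called.

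In the NF-kB list 7 of 32 genes were higher (21.9%, against 20.7% of all genes), 16 lower (50%, against 39%) and 9 not called. TRAF3, the adaptor that holds back the alternative NF-kB pathway by degrading its kinase NIK, stood at 2.66, 2.33, 2.21 and 2.50 in JJN3, against -2.62, -2.83, -2.21 and -2.30 in RPMI-8226, a difference of 4.91 ± 0.15 (limma adjusted p = 1.16e-08). Its second probe set, 208315_x_at, gave 2.04 ± 0.11. IKBKB, a kinase of the classical pathway, was higher by 1.74 ± 0.10. Among the lower genes were PLEK (-3.40), TRAF1 (-1.78), TNFRSF13B (-1.18) and ICAM1 (-1.09). RELB and NFKB2, subunits of the alternative pathway, were singled out after their values were seen and were at -0.47 and -0.27.

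In MHC class II, 9 of 19 genes were higher (47.4%, against 20.7% of all genes), 6 lower (31.6%, against 39%) and 4 not called. The list median was 0.26, and 0.39, -0.05, 0.17 and 0.35 in the 4 pairs, so the NT shRNA pair did not share its sign. HLA-DQB1 stood at 4.69, 4.12, 2.80 and 5.22 in JJN3, against -3.14, -2.83, -2.80 and -3.13 in RPMI-8226, a difference of 7.19 ± 0.36 (limma adjusted p = 2.90e-07). HLA-DPA1, HLA-DRB1 and HLA-DRA were higher by 3.37, 2.44 and 1.61, while HLA-DRB4 was lower at -2.53. HLA-DQA1 had no settled direction, at -1.46 in 203290_at against 6.95 and 4.31 in the other probe sets. CIITA, the master regulator of the class, was higher by 0.79 ± 0.20 in 1 of 3 probe sets, with another called the other way. In MHC class I, 13 of 25 were higher (52%), 4 lower (16%) and 8 not called, with a median of 0.28, and 0.34, 0.16, 0.10 and 0.31 in the 4 pairs. HLA-B, TAP1 (the peptide transporter) and NLRC5 (the regulator of the class) were higher by 1.0, 1.14 and 1.31, and ERAP2, a peptide-trimming enzyme, was lower at -2.64. B2M gave 2.82 in 232311_at but 0.29 and 0.31 in its other probe sets. Interferon genes were mixed, with 10 of 43 higher (23.3%), 17 lower (39.5%) and 16 not called. OAS1 (-2.99), IFITM1 (-2.46) and OAS2 (-2.05) were lower, and SAMD9L (3.54), GBP1 (3.17) and PARP14 (2.04) higher.

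**Figure D4:**
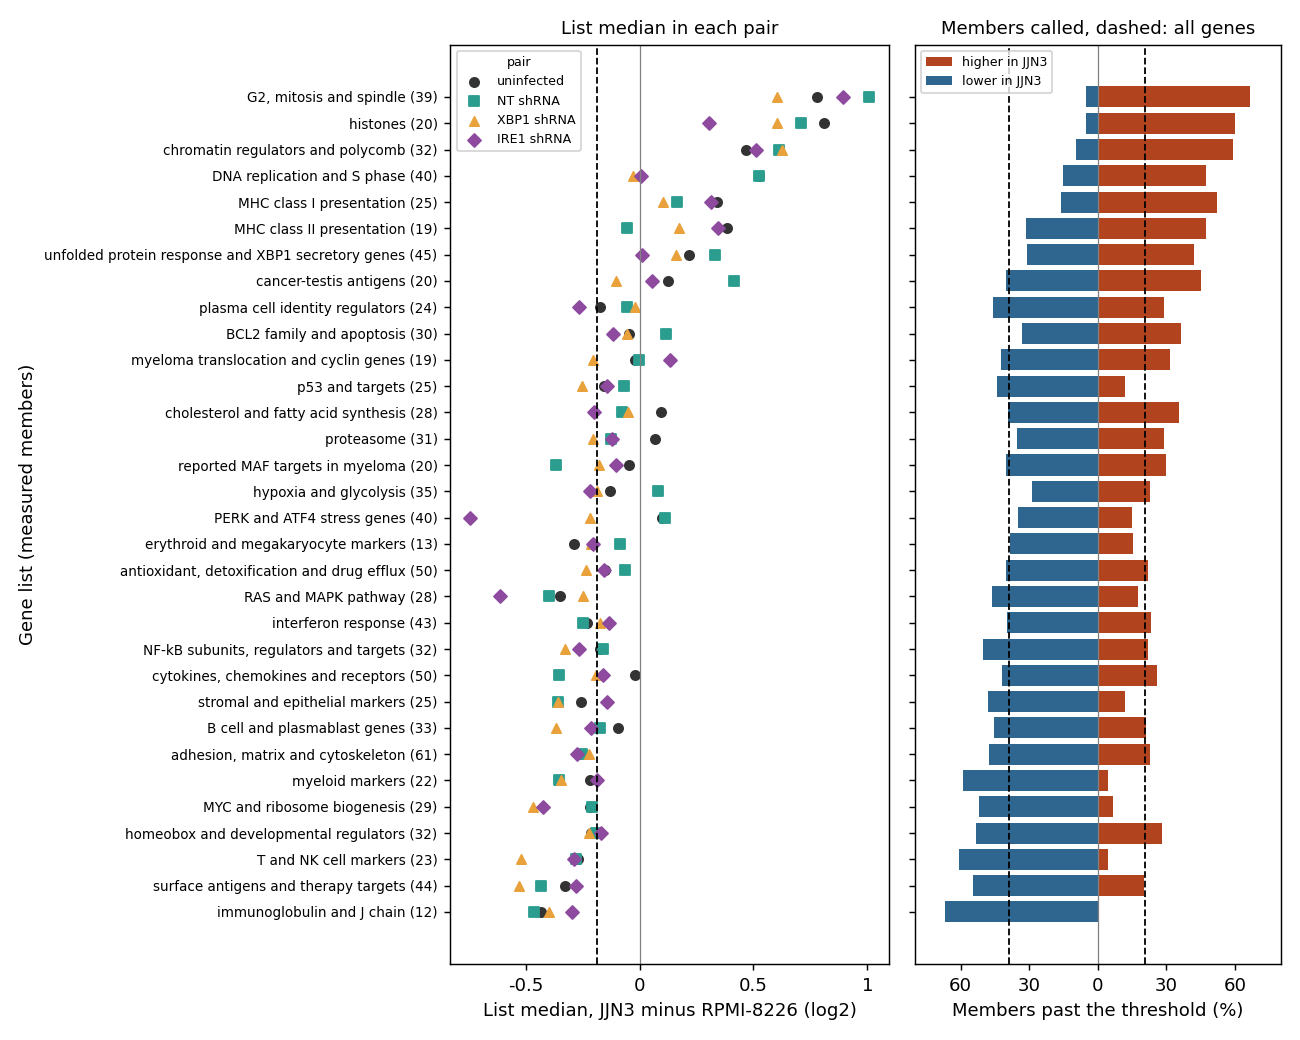
Left, the median difference JJN3 minus RPMI-8226 (log2 units) of each of 32 gene lists in each pair, 1 marker per treatment; right, the percent of each list's measured members past the threshold, higher in JJN3 to the right in red and lower to the left in blue, with dashed lines at the values of all genes (median -0.19; 20.7% higher, 39% lower). Lists are ordered by the median of the mean differences. By that order the mitotic list is highest, with all 4 pairs at 0.60 or above, and the immunoglobulin list lowest, with 8 of 12 lower. Neither holds its rank in every pair.

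B lineage genes before the plasma cell stage were 7 of 33 higher (21.2%, against 20.7% of all genes), 15 lower (45.5%, against 39%) and 11 not called (list median -0.25). The kinases split: LYN, of the Src family, was higher by 2.34 ± 0.10, and BTK lower at -3.59 ± 0.15. BCL6, the germinal center repressor, was higher by 3.45 ± 0.52, but its RPMI-8226 values were -3.85, -0.15, -3.93 and -3.92, with the NT shRNA array far from the other 3. Its JJN3 values were 0.87, 0.64, 0.28 and 0.15, so the lines did not overlap even so. Its difference was -1.08 after cyclic loess, and it did not pass with each gene's own variance. Of 23 T and NK cell markers 1 was higher and 14 lower (60.9%, median -0.37), and of 22 myeloid markers 1 was higher and 13 lower (59.1%, -0.33), where all genes had 39% lower and a median of -0.19. Of 25 stromal and epithelial markers 3 were higher and 12 lower (48%, -0.25), and of 13 erythroid and megakaryocyte markers 2 were higher and 5 lower (38.5%, -0.16). CD247, the zeta chain of the T cell receptor, was the exception at 6.46 ± 0.13 in 1 of 2 probe sets, while CD3D and CD3G, given as defining T cell markers, were at -0.41 and -0.59. KRT18, a keratin, was lower at -5.37 ± 0.11.

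Stress, metabolic and survival lists, apart from the proteasome list, held strong single genes, and all had members called in both directions. Over all genes 20.7% were higher and 39% lower. In the unfolded protein response and secretory list 19 of 45 were higher (42.2%), 14 lower (31.1%) and 12 not called (median 0.24). KDELR3, a receptor that returns ER proteins, was higher by 5.01 ± 0.11 and HSP90B1 by 1.59. SSR3 and SSR4 of the translocon complex were lower at -1.93 and -1.49. PERK and ATF4 genes were 6 of 40 higher (15%) and 14 lower (35%). The list medians were 0.10, 0.11, -0.22 and -0.74 in the 4 pairs, so the sign of the median differed between pairs. In the apoptosis list 11 of 30 were higher (36.7%) and 10 lower (33.3%). CASP1, the inflammatory caspase, was higher by 3.46 ± 0.10 and BNIP3 was lower at -6.91 ± 0.11. MCL1, a survival factor of myeloma cells given whatever its value, was higher by 0.53 ± 0.19. Hypoxia and glycolysis genes were 8 of 35 higher (22.9%) and 10 lower (28.6%). P4HA2, a collagen prolyl hydroxylase, was at 4.42, with 1 of 3 probe sets called the other way at -0.43. EPAS1, a hypoxia-inducible factor, was at -3.71. Of the antioxidant and drug efflux genes, 11 of 50 were higher (22%) and 20 lower (40%). NQO1 was at 3.44 and the exporter ABCC1 at 1.45, against GPX7 at -5.46 and the exporter ABCG2 at -2.41. GPX7 in RPMI-8226 was 3.93, 4.76, 1.70 and 4.42, lowest on the XBP1 shRNA array, while its JJN3 values were -1.70, -1.81, -1.81 and -1.73. MYC and ribosome biogenesis genes were 2 of 29 higher (6.9%) and 15 lower (51.7%), with a median of -0.33. SRM at -1.70 and MAX at -1.53 led the lower side. Proteasome genes were 9 of 31 higher (29%) and 11 lower (35.5%), with no gene in the large class. Genes of p53 were 3 of 25 higher (12%) and 11 lower (44%), with 1 large lower gene, PLK3 (-1.51). Sterol and fatty acid synthesis genes were 10 of 28 higher (35.7%) and 11 lower (39.3%). The 2 large higher genes there were PMVK (1.57) and HSD17B7 (1.19).

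Cancer-testis antigens, genes of the germ line that tumors switch on, differed in both directions. Of 20 measured, 9 were higher, 8 lower and 3 not called (85% called, against 59.8% of all genes), and 15 of the 20 were large (75%, against 9.83%). DDX43, a helicase, stood at 2.09, 2.17, 2.70 and 2.86 in JJN3, against -2.11, -2.26, -2.09 and -2.83 in RPMI-8226, a difference of 4.77 ± 0.21 (limma adjusted p = 1.30e-07). CTAG2, MAGEA6 and MAGEB2 were higher by 4.27, 3.17 and 2.87, though 1 of the 2 CTAG2 probe sets was called the other way. PAGE1 stood at -3.17, -3.74, -3.70 and -3.61 in JJN3, against 3.17, 3.57, 3.38 and 3.82 in RPMI-8226, a difference of -7.04 ± 0.17. MAGEA4, SSX1 and MAGEA1 were lower at -4.44, -3.66 and -2.93. Within the MAGEA family the sign thus differed between members, and near-identical copies can share probes.

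Along the genome, the large differences were unevenly spread. On chromosome 8, 101 of 716 genes (14.1%) were large and higher in JJN3 and 11 (1.54%) large and lower, against 6.11% and 3.72% over all genes, and CTHRC1, FABP5 and FZD6 lie there. Chromosome 18 had 11.2% large and higher. Chromosome X had 75 of 696 (10.8%) large and lower, and chromosome 19 1.44% large and higher and 5.38% large and lower. In running medians of 25 neighbouring genes, the highest value of all chromosomes was 1.56, on chromosome 8 between RUNX1T1 and CPQ, with 1.46, 1.48, 1.27 and 1.33 in the 4 pairs. It held 16 higher and 4 lower genes, of which 12 were large and higher. Windows of 15 and 51 genes, chosen after seeing the data, also peaked on this chromosome, at 1.72 between TRIQK and CCNE2 and at 0.61 between C8orf88 and RNF19A, the last close to 0.59 on chromosome 1. The next chromosome was 6, at 0.85 between HCRTR2 and FAM135A. Genes of the window, named after their values were seen, were SDC2, a heparan sulfate proteoglycan, at 6.62 ± 0.13, CPQ, a peptidase, at 4.65 ± 0.10, and CDH17, a cadherin, at 3.25 ± 0.16. CCNE2 lies there as well. SDC2 stood at 3.53, 3.82, 2.91 and 3.64 in JJN3, against -3.21, -2.91, -3.25 and -3.21 in RPMI-8226. TP53INP1 and ESRP1, inside the same window, were lower at -1.77 and -1.26, neither passing with each gene's own variance. The lowest window of 25 genes lay on chromosome 9 between TOR2A and URM1, at -0.84, with 19 of 25 genes lower and 1 higher. With 51 genes the lowest was also on chromosome 9, at -0.70. With 15 genes it was on chromosome 1 between LAMB3 and LINC00467, at -1.20. The arrays measured RNA and no copy number.

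**Figure D5:**
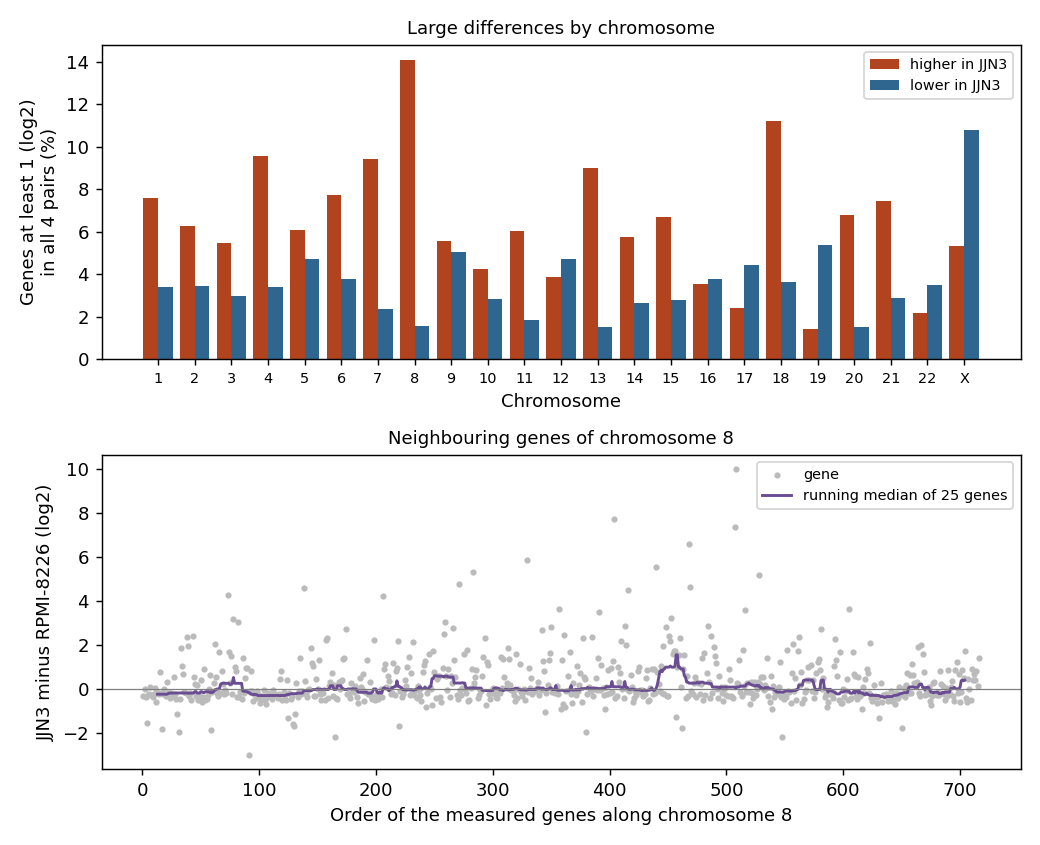
Top, the percent of measured genes of each chromosome that were large standing differences, higher in JJN3 in red and lower in blue; bottom, the difference JJN3 minus RPMI-8226 (log2 units) of each measured gene of chromosome 8 in map order (grey points) with the running median of 25 genes (purple). Chromosome 8 has the tallest red bar at 14.1% and chromosome X the tallest blue bar at 10.8%, and the running median peaks at 1.56.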

How the data were processed

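Total RNA of 8 cultures was measured on Affymetrix arrays, 4 of JJN3 and 4 of RPMI-8226. Per the submitters' processing notes the authors used RMA; the version, the log base and the centring are not given in the sources used here. The deposited values were taken as log2 because RMA returns that scale, with a range of -5.73 to 5.45 and a median of 0 over the 8 arrays in each probe set. They hold no signal over background, so no filter on dim probe sets could be made, and the number of arrays limits the precision.

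Probe sets were named from the platform annotation: 41091 of 54675 had 1 symbol, 1801 several and 11777 were not listed, and 41037 of the named ones matched the reference gene table (GRCh38.p14, used for names and gene order). Of the 19775 genes, 10523 had several probe sets and were represented by the first by kind of ID (_at, _a_at, _s_at, _x_at, others), then lowest number, a choice that uses no values. Genes without a probe set of 1 symbol were not analysed here.

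limma 3.58.1 in R 4.3.3 fitted JJN3 against RPMI-8226 with treatment as a block (lmFit and eBayes, two-sided, Benjamini-Hochberg over 19775 genes, threshold 0.05), since the labels give both lines the same 4 treatments. An interaction of line and silencing was fitted over the same 8 arrays. Where a value is of a named probe set other than the chosen one, its p was adjusted over all 54675 probe sets. In data simulated for this comparison over 19775 genes, the fit recovered 100 of 100 genes changed by 1 and 100 of 100 changed by 2 (log2). It also called 18 unchanged genes. Only 200 genes were changed there, and the noise was normal and independent between genes. The simulation therefore does not speak to smaller differences, or to data where most genes are called. Nothing in the labels says that cultures were independent repeats, so p-values measure the spread between these pairs, as moderated by limma over all genes.

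The named genes were the 15 highest and 15 lowest among large standing differences whose probe sets all had 1 sign, up to 4 called members per direction of each of 32 lists, and 22 fixed genes. The members, lists and rules were chosen with earlier results of these data known. The lists held 1058 genes, of which 937 were measured.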

Additional observations from a re-analysis of the deposited data

Results flagged for a closer look

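Among 588 sets of 4 arrays of a line, for the named genes and the list medians, 35 had 1 array set apart from the other 3 by more than Dixon's 95% critical value for 4 samples. For independent normal repeats that value would set apart about 1 in 20 sets. Here the 4 arrays of a set are unlike treatments and genes are not independent, so that rate cannot judge the number. The values are given with no explanation.

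On the JJN3 XBP1 shRNA array the 2 histone genes stood far above the other JJN3 arrays: H2BC4 at 2.97 (others 0.42 to 0.60) and H2BC21 at 2.57 (0.30 to 0.53). On the same array GINS2, a replication factor, was at 0.118 (1.23 to 1.26), GJA1 at 3.24 (4.20 to 4.37), MYC at -1.01 (-0.14 to 0.03), PSMB4 at 0.461, PSMB7 at -0.227, UTP20 at 0.234 and FCER1G at 0.0613. On the JJN3 IRE1 shRNA array EDEM1, an ER degradation factor, was at -1.19 (others -0.29 to -0.21), ERN1 at -0.0260, PECAM1 at 0.997 and ITGA2B at 0.000662. On the JJN3 NT shRNA array IGFBP3 was at -2.74 (others -3.95 to -3.77), RB1 at 0.234, DUSP1 at 0.888, NSDHL at -0.403, EPAS1 at -2.16, MAGEB2 at 1.55 and the median of the myeloid markers at -0.181. On the uninfected JJN3 array PLOD2 was at 2.90 (3.24 to 3.27).

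In RPMI-8226 the widest gap was BCL6 on the NT shRNA array, at -0.152 with the other 3 at -3.93 to -3.85. The same array held CD99 at 2.79, ACTN1 at -1.88 and SRM at 1.12. On the RPMI-8226 XBP1 shRNA array PRDM1 was at -1.74 (others -0.40 to -0.31), SAMD9L at -2.30, LYN at -0.961, VLDLR at -0.256, CCND3 at 0.636, GNLY at 0.427 and EPOR at 0.380. KISS1R was at 3.75 and ARID1A at 0.0832 on the IRE1 shRNA array, and SQLE at -1.08 on the uninfected array.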

How the results depend on the processing

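Over 15 alternatives, the count of called genes moved most with the way the test was set. With each gene's own variance 4941 genes were lower in JJN3, and with only the control pairs 5054, against 7720. A test against a minimum of 1 log2 unit (limma treat) called 1668 genes, 1072 higher and 596 lower. Testing every probe set called 30636 of 54675, 12458 higher and 18178 lower, with 5270 large, 3719 higher and 1551 lower. The probe set of highest SD, a choice that favors the line difference, gave 1851 large higher genes against 1208. Leaving out 1 pair in turn called 9950 to 10354 genes, with 2078 to 2148 large, and all 1944 large genes were among them each time. The fit without the replicate block (the treatment pairs) called 11088 genes and the same 1944 large ones. Array medians at 0 and cyclic loess shared 1841 and 1718 of the 1944; cyclic loess used averages of centred values, which hold no intensity. The interaction called 0 genes under every alternative run. In 3140 comparisons of 262 named genes with an alternative, 3008 kept their direction and side of the threshold, 99 fell below it and 7 rose above it. The other 26, in 13 genes, changed sign. With the probe set of highest SD and with the mean of the probe sets, the signs turned for IGKC (2.70 and 0.109), MAF (1.73 and 0.398), CCND2 (1.08 and 0.415), HLA-DQA1 (6.95 and 3.27), HLA-DPB1 (0.797 and 0.0435), PSMB7 (1.05 and 0.128), ARID1A (1.10 and 0.558), SMARCA4 (1.32 and 0.447) and CLEC7A (-1.85 and -0.529), and with the mean for XBP1 (-0.0135). Cyclic loess turned BCL6 (-1.08), CEBPB (-0.243), GINS2 (-0.0882) and MAF (0.120), array medians at 0 turned MAF (0.0707), and so did leaving out the uninfected pair (0.0227) or the XBP1 shRNA pair, in a range of -0.0851 to 0.0478 over the left-out pairs. Of 352 list medians under alternatives, 270 moved by less than the spread between pairs and 82 by more. Causes were not tested.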

Other observations

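The 7 measured genes of the mitochondrial genome had a median difference of -1.41, with 3 large and lower in JJN3, and medians of -1.09, -1.07, -1.39 and -1.30 in the uninfected, NT shRNA, XBP1 shRNA and IRE1 shRNA pairs. Beside chromosome 8, long runs of neighbouring genes with raised running medians lay on chromosome 1, between PLPPR5 and CFAP276 (43 genes, 22 higher and 6 lower in JJN3), and on chromosome 7, between RSBN1L and AKAP9 (43 genes, 23 higher and 7 lower). The window of highest median on chromosome 7 ran from HGF to STEAP1, at 0.62, with 17 genes higher and 2 lower. These windows were picked as the highest of each chromosome, so their heights carry no test.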
